A study of Homo sapiens with 6 samples.

Results

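The replication-dependent histone genes are the clustered, protein-coding genes for the linker histone H1 and the core histones H2A, H2B, H3 and H4. They were chosen by symbol (H1-1 to H1-6, and H2AC, H2BC, H3C or H4C followed by a number, with the older names HIST1H to HIST4H) and without pseudogenes, which gave 70 of the 60664 genes in the count table. H1 had 6 members, H2A 17, H2B 18, H3 14 and H4 15. The HIST1 cluster on chromosome 6 held 55 of them, HIST2 on chromosome 1 held 11, HIST3 on chromosome 1 held 3 and HIST4 on chromosome 12 held 1. The study sequenced mRNA of cultured cells with the label HCT8, which is a line from a human colorectal cancer, and asked which signalling GPT1 controls. In 3 libraries the cells had received a plasmid for overexpression of GPT1, the cytosolic alanine aminotransferase, and in 3 a control plasmid. Both groups share the labelled cell line and a plasmid transfection. The labels name neither the time after transfection nor the promoter on the plasmid.

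Total counts lay between 21255655 and 32487217 per library, with control replicate 3 the lowest. GPT, the gene of GPT1, had 105529, 96886 and 106063 reads in the GPT1 overexpression libraries, against 9, 14 and 3 reads in the control libraries, so that all 6 libraries matched their labels. The labelled cell type was matched only in part. CDX2, an intestinal transcription factor, averaged 45.3 ± 3.56 CPM (reads scaled to library size) with GPT1 overexpression and 41.7 ± 4.46 in controls (SD, n = 3 each). KRT8 averaged 351 ± 19.3 CPM with GPT1 overexpression and 529 ± 45.2 in controls, and KRT18 171 ± 12.6 and 260 ± 25.8. KRT19, CDH1, EPCAM and VIL1 averaged 3.17 to 12.5 CPM with GPT1 overexpression and 12.3 to 51.1 in controls. LGALS4 and CDH17 averaged 0.813 and 0.944 CPM, against 3.91 and 3.97 in controls. The colon genes KRT20 and CDX1 had at most 2 reads in a GPT1 overexpression library and at most 5 in a control library. GPA33 had at most 14 and 7. IRS4, a gene that colon epithelium is not known for and that a kidney-derived line expresses strongly, averaged 404 ± 35.98 CPM with GPT1 overexpression and 813 ± 76.9 in controls. Of the 9 neural and kidney-line genes searched, NEFM, NEFL and ENO2 also had many reads. PAX2 and MAP2 had few, and PAX8, TUBB3 and NEFH had the fewest, with PAX8 at 0.282 ± 0.052 and 0.498 ± 0.172 CPM. No source states that the libraries came from separate cultures, so p-values measure only the spread between these libraries, which may be technical.

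Replication-dependent histones package newly copied DNA. Their genes are transcribed mainly in S phase, their mRNAs have no introns, and most of these mRNAs end in a conserved stem-loop in place of a poly(A) tail. The stem-loop is bound by SLBP, the stem-loop binding protein, which is needed for the cut that forms the end, for translation and for the timed decay of the mRNA. Some members also make longer, polyadenylated transcripts, in particular in cells that leave the cycle or differentiate. Libraries made by poly(A) selection would hold mainly the second kind. The labels call the libraries mRNA libraries and do not state whether poly(A) selection was used.

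Stem-loops were searched in the annotated transcripts. A hit had to start with GG, end with CC, have a loop that starts with TT and ends with C, and have at most 1 stem mismatch. Part of the letters that hits share was therefore set by the search. The annotation used for counting is not known, so the search does not show which mRNA ends the counts contain. A stem-loop was found in a GENCODE 29 transcript of 23 members, 5 of them H4 genes and 18 of other classes, and 17 of those 18 shared the same letters. Members without a hit may still have a stem-loop. The GENCODE 29 transcripts of H2BC12 and H1-2, for example, end short of the RefSeq ends of these genes. The 6-base stems are in capitals and the 4-base loop in lower case, 5′ to 3′:
H2BC21 stem-loop: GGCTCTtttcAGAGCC
H4C8 stem-loop: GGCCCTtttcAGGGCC
H2AC11 stem-loop: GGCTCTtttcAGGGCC
H2BC21 carries the form common outside H4, H4C8 the H4 form, and H2AC11 a stem with 1 T opposite a G, which the search counted as a mismatch. The annotated transcripts ran on past the stem-loop by 6 to 1917 bases, and 16 of the 23 ran on by 300 bases or more.

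The promoters are those of the 3 members with the most reads (H2BC12, H2AC25 and H1-2) and of H2BC4, the called member with the largest fold change, from 250 bases before to 50 bases after the start (RefSeq, GRCh38.p14). Capitals mark the searched motifs on either strand, which were ATTTGCAT (the octamer bound by POU2F1), also the CCAAT box, also TATAAA (the TATA box), and AAACACA (a box known from H1 promoters):
H2BC12 promoter, chr6:27146809-27147108, minus strand: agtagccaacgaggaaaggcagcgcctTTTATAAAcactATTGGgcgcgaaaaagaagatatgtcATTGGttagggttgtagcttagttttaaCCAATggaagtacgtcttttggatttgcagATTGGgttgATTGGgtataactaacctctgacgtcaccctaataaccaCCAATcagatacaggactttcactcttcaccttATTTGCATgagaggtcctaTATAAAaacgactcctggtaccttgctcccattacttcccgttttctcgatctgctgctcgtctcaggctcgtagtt
H2BC4 promoter, chr6:26123877-26124176, minus strand: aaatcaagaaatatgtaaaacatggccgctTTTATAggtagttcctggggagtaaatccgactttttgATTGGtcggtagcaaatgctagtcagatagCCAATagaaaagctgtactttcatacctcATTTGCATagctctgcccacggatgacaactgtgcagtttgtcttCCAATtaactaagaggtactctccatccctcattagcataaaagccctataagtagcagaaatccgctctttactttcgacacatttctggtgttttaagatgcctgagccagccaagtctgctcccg
H1-2 promoter, chr6:26056421-26056720, minus strand: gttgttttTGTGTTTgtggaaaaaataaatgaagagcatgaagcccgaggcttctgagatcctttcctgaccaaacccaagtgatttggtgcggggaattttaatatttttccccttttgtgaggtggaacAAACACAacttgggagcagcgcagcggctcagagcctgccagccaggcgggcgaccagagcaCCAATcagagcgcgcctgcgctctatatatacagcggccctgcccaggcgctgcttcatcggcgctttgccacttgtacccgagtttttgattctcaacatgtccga
H2AC25 promoter, chr1:228457824-228458123, minus strand: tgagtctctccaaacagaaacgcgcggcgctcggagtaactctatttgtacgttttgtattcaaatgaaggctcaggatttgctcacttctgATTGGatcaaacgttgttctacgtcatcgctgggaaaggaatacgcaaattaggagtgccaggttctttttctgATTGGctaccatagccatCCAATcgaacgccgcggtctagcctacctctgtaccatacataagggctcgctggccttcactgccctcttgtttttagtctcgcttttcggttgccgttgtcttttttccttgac
A promoter was listed for 65 of the 70 members. The octamer was present in 14 of 18 H2B and 11 of 16 H2A promoters, in 1 of 12 H3 promoters and in none of the 6 H1 and 13 H4 promoters, against 1.8% of all 27305 RefSeq promoters. AAACACA was in 6 of 6 H1 promoters, against 5.76% of all promoters. CCAAT was in every promoter of H1, H2A, H2B and H3 but in only 3 of 13 H4 promoters, against 35.7% of all. TATAAA was in 43 of 65, against 11.95% of all. H2AC25 was among the H2A promoters without the octamer in this window. These are matches of letters, not measured binding.

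Of the 70 members, 59 had at least 1 read, 11 had none in any library, and 31 had enough reads to be tested (edgeR filterByExpr, minimum count 10). With GPT1 overexpression 14 of the tested members rose and 0 fell at an adjusted p under 0.05 (edgeR quasi-likelihood test, two-sided, Benjamini-Hochberg over 17638 genes). Over all tested genes 10.5% rose and 14.6% fell. The median log2 fold change was 0.57 over the 31 tested members and -0.02 over all tested genes. Among tested members, 16 had GPT1 overexpression libraries all above the controls, 1 had them all below and 14 overlapped, while 21.2% of all tested genes had GPT1 overexpression libraries all above and 22.2% all below. No tested member had fewer than 10 reads in every library of a group. The 14 risers were 6 H2B, 5 H2A, 1 H1, 1 H3 and 1 H4 gene. At an unadjusted p under 0.05, 15 members were higher and 1 was lower. DESeq2 called 13 higher and 0 lower, and limma voom called 14 higher and 0 lower.

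The number of calls depended on the libraries. It was 8 without GPT1 overexpression replicate 3, 9 without GPT1 overexpression replicate 1, 10 without control replicate 1 and 12 to 13 without any of the others. Calls over all genes also went down, to 1443 without GPT1 overexpression replicate 3, 1586 without GPT1 overexpression replicate 1 and 2565 without control replicate 1, against 4430 with all 6 libraries. The members H2BC12, H2BC5, H2BC4, H1-2, H2AC6 and H4C8, H2BC11 and H3C10 kept their call whichever library was left out. H2BC12, H2BC5, H2BC4, H1-2, H2AC6 and H4C8 also kept it under all 18 alternatives run.

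H2BC12 (older name HIST1H2BK, chr6:27146418-27146798, minus strand, GRCh38) encodes an H2B and took the most reads of all members. It had 144, 133 and 136 CPM in the GPT1 overexpression libraries, against 67.9, 72.5 and 60.2 CPM in the control libraries. The groups were far apart, and H2BC12 rose by 1.04 on the log2 scale (SE 0.09, adjusted p = 7.8e-05, edgeR), about a doubling. Of the 50-base stretches in its GENCODE 29 transcript (381 bases), 74.1% also occur in other histone genes, so reads may be shared with them. Its RefSeq span is longer, at 8566 bases, and was not searched for shared stretches.

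The other H2B genes that rose had far fewer reads. H2BC4 (chr6:26114873-26123926) had 1.90, 1.64 and 1.63 CPM with GPT1 overexpression, against 0.550, 0.666 and 0.786 in controls, and had the largest log2 fold change of the called members, 1.39 (SE 0.24, adjusted p = 0.0039, edgeR). H2BC5 (chr6:26158146-26171349) had 7.85, 7.57 and 8.33 CPM, against 3.33, 4.31 and 3.56 in controls (log2 fold change 1.08, SE 0.15, adjusted p = 0.0010, edgeR). In both genes every GPT1 overexpression library stood clearly above every control library. H2BC11 had 9.49, 8.62 and 8.49 CPM with GPT1 overexpression, against 4.09, 6.47 and 5.04 in controls (log2 fold change 0.77, SE 0.17, adjusted p = 0.011, edgeR). H2BC21, an H2B gene of the HIST2 cluster beside H2AC20, had 8.33, 7.83 and 7.29 CPM, against 5.89, 5.93 and 5.31 in controls (log2 fold change 0.45, SE 0.13, adjusted p = 0.030, edgeR). Its groups did not overlap, but the call was lost without control replicate 1 (adjusted p = 0.066), GPT1 overexpression replicate 1 (0.11) or GPT1 overexpression replicate 3 (0.071).

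H2BC6 had 2.09, 2.06 and 2.52 CPM with GPT1 overexpression, against 1.56, 1.49 and 0.786 in controls (log2 fold change 0.76, SE 0.25, adjusted p = 0.046, edgeR), and control replicate 3 stood apart as the lowest library. Its adjusted p was 0.058 without control replicate 1, 0.089 without control replicate 3, 0.097 without GPT1 overexpression replicate 1 and 0.15 without GPT1 overexpression replicate 3. Not every H2B gene rose. H2BC15 had 7.85, 8.58 and 8.17 CPM with GPT1 overexpression, against 6.81, 6.98 and 9.66 in controls, and H2BC26 had 2.67, 2.92 and 2.29 CPM, against 2.35, 2.47 and 2.40. Both groups overlapped in both genes (log2 fold changes 0.08 and 0.12, adjusted p = 0.74 and 0.62, edgeR). The annotated span of H2BC15 contains H2AC15 and H2AC16, so their reads cannot be separated with certainty.

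Among the H2A genes, H2AC25 of the HIST3 cluster (chr1:228456979-228457873, minus strand) had the most reads, with 60.3, 42.2 and 49.1 CPM in GPT1 overexpression libraries, against 34.4, 39.7 and 30.5 CPM in controls. The lowest GPT1 overexpression library lay just above the highest control, and H2AC25 rose by 0.53 on the log2 scale (SE 0.14, adjusted p = 0.023, edgeR). The call was lost without control replicate 1 (adjusted p = 0.065), GPT1 overexpression replicate 1 (0.10) or GPT1 overexpression replicate 3 (0.072). H2AC6 had 13.99, 13.6 and 11.9 CPM with GPT1 overexpression, against 8.43, 8.98 and 6.93 in controls (log2 fold change 0.69, SE 0.14, adjusted p = 0.0077, edgeR). H2AC11 had 7.98, 9.50 and 9.31 CPM, against 5.01, 6.19 and 5.87 in controls (log2 fold change 0.65, SE 0.14, adjusted p = 0.011, edgeR). In H2AC6 and H2AC11 the groups were well separated, and the H2AC11 call ended narrowly without GPT1 overexpression replicate 3 (adjusted p = 0.0504).

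The low-count H2A calls rested on fewer reads. H2AC13 had 2.80, 2.49 and 2.06 CPM with GPT1 overexpression, against 1.80, 1.36 and 1.34 in controls (log2 fold change 0.69, SE 0.21, adjusted p = 0.034, edgeR). H2AC16 had 0.804, 0.950 and 0.751 CPM, against 0.458, 0.444 and 0.370 in controls (log2 fold change 0.95, SE 0.30, adjusted p = 0.039, edgeR). Neither pair of groups overlapped, yet the H2AC16 call ended whichever library was left out (adjusted p 0.075 to 0.10). The H2AC13 call ended without any library but control replicate 1 (adjusted p 0.053 to 0.13). H2AC20 was level, with 2.70, 2.88 and 2.71 CPM with GPT1 overexpression, against 2.60, 3.55 and 2.40 in controls (log2 fold change -0.05, adjusted p = 0.85, edgeR).

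Nearly all H1 reads came from a single gene. H1-2 (chr6:26055787-26056428, minus strand), a somatic linker histone, had 50.8, 37.7 and 48.2 CPM in the GPT1 overexpression libraries, against 26.9, 31.2 and 21.9 CPM in the controls. All GPT1 overexpression libraries were above the controls, and H1-2 rose by 0.77 on the log2 scale (SE 0.15, adjusted p = 0.0068, edgeR). H1-4, another somatic H1, had 16, 10 and 5 reads with GPT1 overexpression, against 22, 21 and 14 in controls. These groups also did not overlap in CPM, with GPT1 overexpression lower (log2 fold change -0.97, SE 0.40, adjusted p = 0.093, edgeR). H1-3 had 6, 4 and 2 reads, against 9, 4 and 4, H1-1 and the testis form H1-6 had at most 1 read in any library, and H1-5 had none.

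The H3 and H4 genes had few reads. H3C10 had 7.27, 8.78 and 6.73 CPM with GPT1 overexpression, against 5.22, 4.89 and 5.27 in controls, and rose by 0.57 on the log2 scale (SE 0.14, adjusted p = 0.019, edgeR). H3C6 had 8.43, 8.16 and 7.74 CPM, against 5.44, 7.30 and 5.27 in controls, so that the groups did not overlap, but it missed the threshold (log2 fold change 0.43, SE 0.15, adjusted p = 0.060, edgeR). Without control replicate 2, the highest control, its adjusted p was 0.017. H4C8 had 2.38, 2.29 and 1.86 CPM with GPT1 overexpression, against 1.19, 1.11 and 0.878 in controls, and rose by 1.02 on the log2 scale (SE 0.21, adjusted p = 0.0094, edgeR). It was the H4 gene with the most reads and the only one called. H4C14 and H4C15 are copies in the HIST2 cluster, and 100% of their 50-base stretches also occur in another histone gene. H4C14 had 4, 10 and 12 reads with GPT1 overexpression, against 10, 54 and 3 in controls, and H4C15 had 8, 20 and 61, against 9, 5 and 36, so the libraries differed more within a group than between groups in how reads fell on the copies. Together the copies had 12, 30 and 73 reads with GPT1 overexpression and 19, 59 and 39 in controls.

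**Figure D1:**
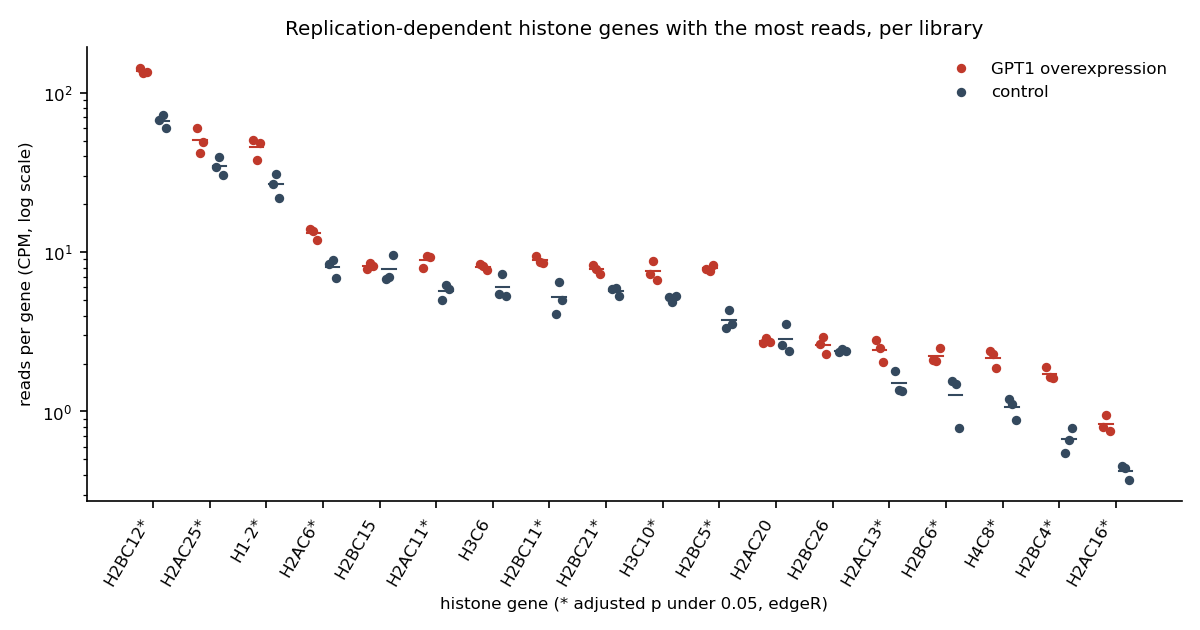
Reads per gene (CPM, log axis) in each library for the 15 members with the most reads and the 3 other members that were called; points are libraries, short lines are means of 3, and an asterisk marks an adjusted p under 0.05 (edgeR). Of the first 15, 11 rose and 4 (H2BC15, H3C6, H2AC20 and H2BC26) were not called.

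The 39 members below the filter had little weight. None had more than 13 reads in a library, and together they had 88, 86 and 83 reads in the GPT1 overexpression libraries, against 75, 74 and 41 in the control libraries, which is 2.79 ± 0.07 and 2.18 ± 0.25 CPM (SD, n = 3 each). In 4 of these members all GPT1 overexpression libraries were above the controls in CPM. The share over all genes below the filter was not computed, so this count is no result about the members. One of the 4, H2BC3, had 6, 2 and 13 reads, against 2, 0 and 1. A count of 0 in a library allows up to 3 reads, 0.092 to 0.14 CPM at these depths, counting error only. H3C3, H3C4, H3C8, H4C6 and H4C13 were among the 11 without any read, and H3C4 overlaps H2AC7, which also had none. The part of depth, of shared sequence and of tail selection in these low counts was not tested.

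Summed over all 70 members, reads came to 353, 315 and 328 CPM in the GPT1 overexpression libraries, against 194, 217 and 180 CPM in the control libraries. The groups were well apart, at 332 ± 19.4 and 197 ± 18.2 CPM (SD, n = 3 each), a ratio of 1.69. In bulk samples a different share of cells that express histone genes and a different amount of RNA per cell cannot be told apart. H2BC12 alone took 41.45% of the members' reads with GPT1 overexpression and 33.95% in controls. Without it the sum was 194 ± 13.8 CPM with GPT1 overexpression and 130 ± 12.4 in controls. Sums weight genes by reads and not per length, and no p is given for them because the genes were chosen with results known.

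By class, H2B stood at 181 ± 5.99 CPM with GPT1 overexpression and 96.6 ± 6.56 in controls, a ratio of 1.87. H1 stood at 46.1 ± 6.97 CPM with GPT1 overexpression and 27.5 ± 4.62 in controls, a ratio of 1.68. H2A stood at 80.6 ± 8.79 CPM with GPT1 overexpression and 54.8 ± 6.78 in controls, a ratio of 1.47 (SD, n = 3 each). These 3 classes did not overlap between groups. H3 had 18.2 ± 1.48 CPM with GPT1 overexpression and 12.96 ± 0.827 in controls, also apart (ratio 1.41), whereas H4 had 6.24 ± 0.889 and 5.15 ± 0.682 and its groups overlapped. Single genes set several of these sums. Without H2BC12 the H2B sum was 43.2 ± 1.13 CPM with GPT1 overexpression and 29.7 ± 2.09 in controls, a ratio of 1.45, close to that of H2A. Without H1-2 the log2 ratio of the H1 sum was -0.84, and without H4C8 that of H4 was -0.0105.

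The balance of H2B to H2A differed between groups with H2BC12 and overlapped without it. H2B reads over H2A reads were 2.08, 2.41 and 2.28 in GPT1 overexpression libraries, against 1.76, 1.68 and 1.88 in control libraries, with no overlap. Without H2BC12 the ratio was 0.484, 0.598 and 0.537, against 0.503, 0.504 and 0.633, and the groups overlapped. H1 over H2A was 0.569, 0.520 and 0.622, against 0.513, 0.516 and 0.470, just without overlap.

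By cluster, HIST1 had 264 ± 10.9 CPM with GPT1 overexpression and 147 ± 12.98 in controls (SD, n = 3 each), a ratio of 1.79. Its 34 distal genes from H2AC1 to H4C8, which include H1-2, had 85.1 ± 7.10 CPM with GPT1 overexpression and 51.4 ± 7.60 in controls. Its 21 proximal genes from H2BC11 to H2BC17, which include H2BC12, had 179 ± 4.52 CPM with GPT1 overexpression and 96.1 ± 5.51 in controls. Each stretch held 6 of the called members. HIST2 had 13.5 ± 0.581 CPM with GPT1 overexpression and 11.2 ± 1.11 in controls (ratio 1.21). H2BC21 was its 1 called gene of 5 tested. HIST3 with HIST4 had 54.0 ± 9.09 CPM with GPT1 overexpression and 38.3 ± 4.39 in controls, nearly all of it H2AC25, and without that gene the log2 ratio was 0.021. The HIST4 gene H4C16 had 27, 29 and 23 reads with GPT1 overexpression, against 34, 24 and 28 in controls (log2 fold change -0.24, adjusted p = 0.54, edgeR).

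**Figure D2:**
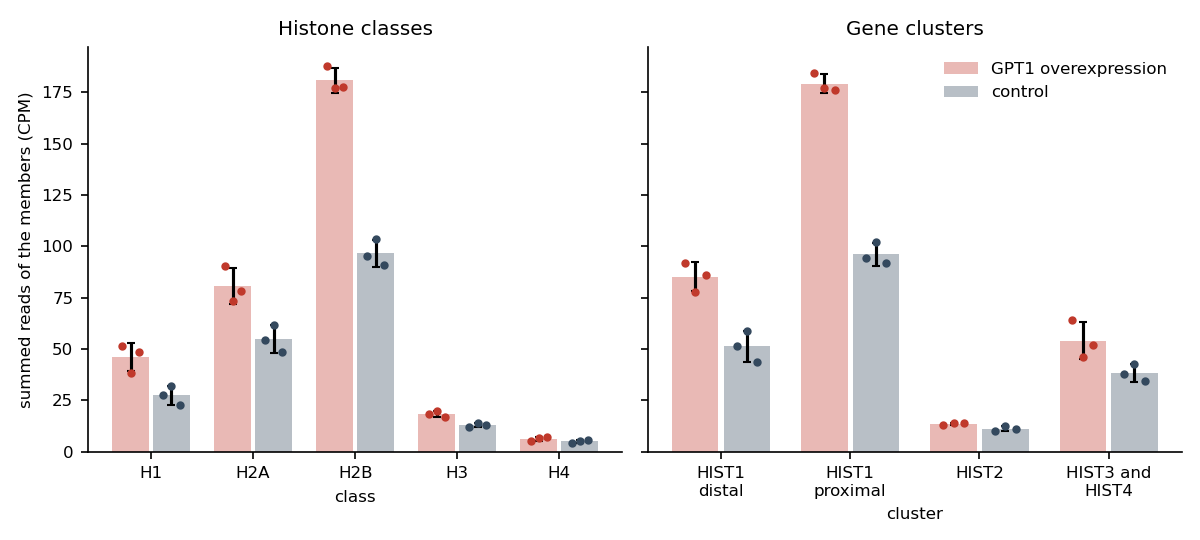
Summed reads of the members (CPM) by histone class and by cluster; bars are means of 3 libraries, error bars are SD, and points are libraries. H2B and the proximal HIST1 genes, with H2BC12 in both, stand at 181 and 179 CPM with GPT1 overexpression, against 96.6 and 96.1 in controls, and the H4 groups overlap.

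The fit was repeated with an offset for transcript length and GC content, which can shift counts between libraries. After that correction 12 members were higher and 1 lower, while 15.8% of all tested genes were higher and 18.6% lower, and the median log2 fold change was 0.38 over the 31 tested members and -0.03 over all tested genes. The share of members called higher was still above that of all genes, but every member called before the correction had a smaller fold change after it. Some members that had not been called moved the other way, among them H2BC15, from 0.08 to 0.295 (adjusted p = 0.052, edgeR). H2BC12 had a corrected log2 fold change of 0.75 (adjusted p = 2.3e-06, edgeR) and H1-2 one of 0.50 (adjusted p = 0.0019). H2AC13, H2AC16 and H3C10 were lost (adjusted p = 0.12, 0.10 and 0.057) and H3C6 was gained (adjusted p = 0.042). H1-4 fell after the correction, by 1.21 on the log2 scale (adjusted p = 0.030, edgeR), so H1-2 and H1-4 were called in opposite directions in that fit only, among the fits run.

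**Figure D3:**
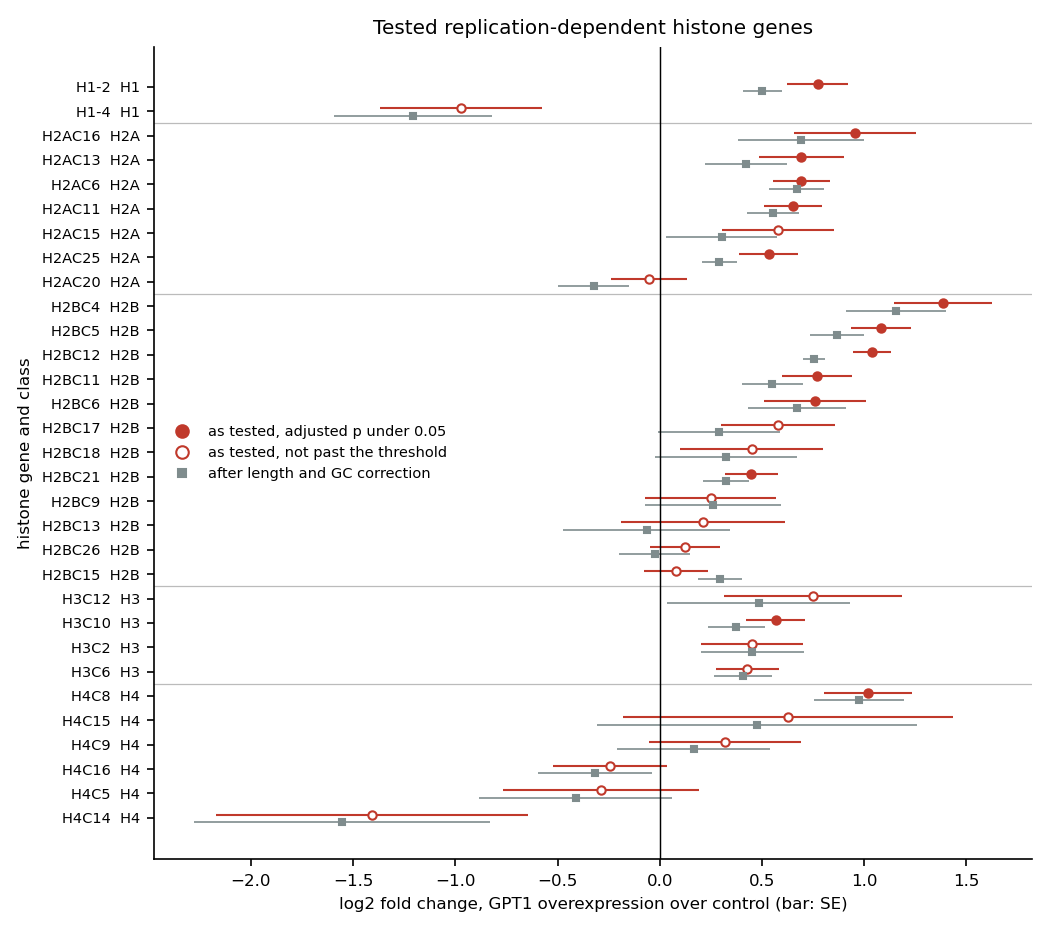
Log2 fold change (GPT1 overexpression over control) with its SE for the 31 tested members, by class; circles are the fit as tested, filled where the adjusted p is under 0.05, and squares are after the correction for length and GC content. Most H2A and H2B genes lie to the right of 0, H1-2 and H1-4 lie on opposite sides, and the H4 genes spread from -1.41 to 1.02.

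Many H2A and H2B genes lie head to head and share one start region. There were 12 such pairs with starts 194 to 248 bases apart. In 6 pairs both genes were tested. Both rose in 2 of them, H2AC6 with H2BC4 and H2AC11 with H2BC11. One rose in 3, namely H2BC21 beside H2AC20, H2AC25 beside H2BC26 and H2AC13 beside H2BC13, and neither in H2AC15 with H2BC15. That 1 gene was called and its partner was not does not show that they differ, since the difference within a pair was not tested. The most unequal pair was H2AC12 with H2BC12. H2AC12 had 4, 12 and 6 reads with GPT1 overexpression, against 10, 13 and 2 in controls, beside 4473, 4062 and 4154 reads of H2BC12, against 2223, 2286 and 1303.

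**Figure D4:**
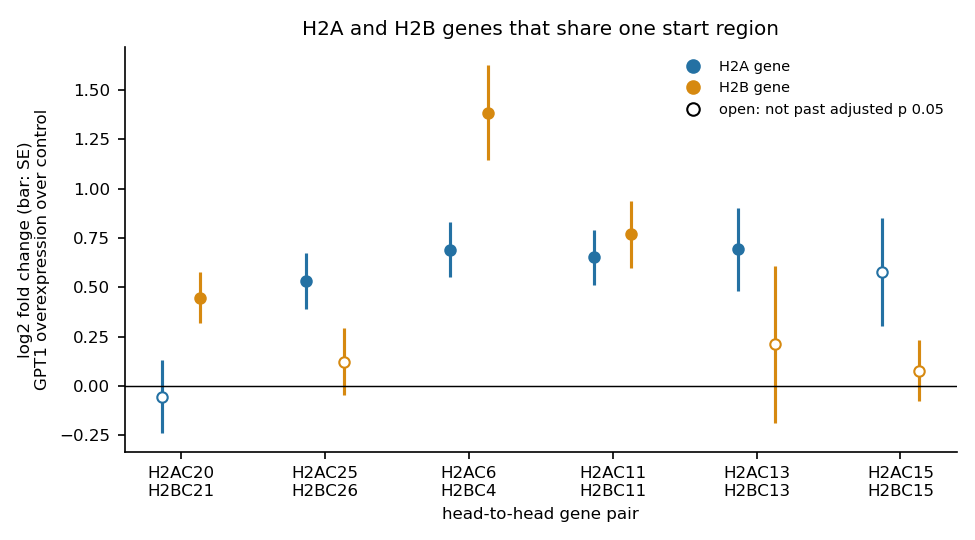
Log2 fold change (GPT1 overexpression over control) with its SE for both genes of the 6 head-to-head pairs in which both were tested; filled points have an adjusted p under 0.05 (edgeR). H2AC6 with H2BC4 and H2AC11 with H2BC11 are filled on both sides, and the H2AC15 pair is open on both.

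6 members are known for polyadenylated transcripts, namely H1-2, H2AC6, H2BC4, H2BC5, H2BC12 and H2BC21. All 6 were tested and rose, where 10.5% of all tested genes rose. These 6 were chosen with earlier results of these data known, so their calls are no independent support. H2BC12 made up most of their reads, at 138 ± 5.63 CPM with GPT1 overexpression and 66.9 ± 6.22 in controls (SD, n = 3 each). Together they had 227, 201 and 213 CPM in the GPT1 overexpression libraries, against 113, 124 and 98.7 CPM in the control libraries, a ratio of 1.91. The other 64 members had 126, 113 and 115 CPM with GPT1 overexpression, against 81.0, 93.0 and 81.8 in controls, a ratio of 1.39. In both sets the groups did not overlap. A split by annotated span, chosen after the counts were seen, showed little difference in calls and medians before the length and GC correction. Of 27 members with an annotated span over 1000 bases, 21 were tested and 10 rose, and of 43 shorter ones 10 were tested and 4 rose. Median log2 fold changes of the tested members were 0.57 and 0.56. After the length and GC correction 10 of the longer ones were higher and 0 lower, and 2 of the shorter ones were higher and 1 lower. The corrected medians were 0.41 and 0.30. Of all tested genes 15.8% were higher and 18.6% lower in that fit. The longer ones had 223 ± 5.30 CPM with GPT1 overexpression and 125 ± 8.39 in controls, the shorter ones 109 ± 15.2 and 71.9 ± 10.0 (SD, n = 3 each), ratios of 1.78 and 1.52. H2BC12 counts as long by its RefSeq span, and without it the longer ones had 85.0 ± 2.52 CPM with GPT1 overexpression and 58.2 ± 3.75 in controls, a ratio of 1.46. Transcripts that lack a poly(A) tail, a list of 19 small RNAs added after the counts were seen, summed to 6.84 ± 2.52 CPM with GPT1 overexpression and 6.01 ± 2.41 in controls, with 10 of its table rows at 0 in every library. These groups overlapped. RN7SL1 made up most of the sum, at 5.57 ± 2.54 CPM with GPT1 overexpression and 5.25 ± 2.38 in controls. Of the 3 list genes tested none was called. Log2 fold changes were 0.73 for SNORA73B (adjusted p = 0.13, groups not overlapping), 0.98 for SNORD3A (0.25) and 0.11 for RN7SL1 (0.83, edgeR). Their median, 0.73, was the SNORA73B value and lay within the range of the called histone genes. It rested on few reads. SNORA73B had 0.747 ± 0.142 CPM with GPT1 overexpression and 0.460 ± 0.133 in controls, and SNORD3A 0.368 ± 0.111 and 0.173 ± 0.181 (SD, n = 3 each). The part of tail selection in the histone values was not tested.

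The replacement histones, which are made throughout the cycle from polyadenylated mRNAs, had calls at about the rate of all tested genes before the length and GC correction. Of 12, all tested, 2 rose and 9 were not called, where 10.5% of all tested genes rose. After the correction 4 were higher and 3 lower, a larger part of the list than the 15.8% and 18.6% of all tested genes. Their median log2 fold change was 0.12, and their summed reads were 3851 ± 216 CPM with GPT1 overexpression and 4026 ± 297 in controls (SD, n = 3 each). H2AZ1, the variant H2A.Z placed at promoters, rose to 825 ± 51.1 CPM with GPT1 overexpression, against 550 ± 15.5 in controls (log2 fold change 0.58, SE 0.08, adjusted p = 0.0011, edgeR). H3-3A, one of the genes of H3.3, rose by 0.30 (adjusted p = 0.022). H2AX and CENPA were not called (log2 fold changes 0.40 and 0.19, adjusted p = 0.11 and 0.19). 1 gene rose without GPT1 overexpression replicate 1 or 3 or control replicate 1, and 3 rose without control replicate 2.

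Most genes of S phase and DNA replication were not called. Of 32, all tested, 5 rose, 1 fell and 26 were not called, where 10.5% of all tested genes rose and 14.6% fell. After the length and GC correction 7 were higher and 4 lower, where 15.8% of all tested genes were higher and 18.6% lower. Their median log2 fold change was 0.03, and their sums overlapped at 7542 ± 164 CPM with GPT1 overexpression and 7234 ± 391 in controls (SD, n = 3 each). TYMS, which makes thymidylate, rose by 0.55 (SE 0.10, adjusted p = 0.0043, edgeR), GINS3, GINS4, ORC6 and FEN1 rose by 0.28 to 0.33, and POLA1, a subunit of DNA polymerase alpha, fell by 0.32 (adjusted p = 0.043). FEN1 and POLA1 were not called after the correction (adjusted p = 0.12 and 0.056). Without GPT1 overexpression replicate 1, GPT1 overexpression replicate 3 or control replicate 1, only 1 rose and 0 fell. The replication genes PCNA and MCM2 had log2 fold changes of 0.02 and 0.07 (adjusted p = 0.88 and 0.64).

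Among 26 genes for transcription, end formation and decay of histone mRNA, 3 rose, 7 fell and 16 were not called, with a median log2 fold change of 0.01. Of all tested genes 10.5% rose and 14.6% fell. After the length and GC correction 6 genes of the list were higher and 6 lower, where 15.8% of all tested genes were higher and 18.6% lower. Without GPT1 overexpression replicate 1 the counts were 2 and 2, without GPT1 overexpression replicate 3 they were 1 and 1, and without control replicate 1 they were 2 and 4. SRRT, a partner of the cap-binding complex, rose by 0.61 (SE 0.10, adjusted p = 0.0034, edgeR), and CSTF2, a cleavage factor, rose by 0.36 (adjusted p = 0.010). CASP8AP2, also called FLASH and needed for the cut at the stem-loop, fell by 1.42 (SE 0.28, adjusted p = 0.0077, edgeR), at 14.8 ± 3.58 CPM with GPT1 overexpression and 39.9 ± 18.9 in controls. TUT4, which adds uridines to histone mRNA in decay, fell by 0.81 (adjusted p = 0.012), and POU2F1, which binds the octamer, fell by 0.68 (adjusted p = 0.019). SLBP itself was not called (log2 fold change 0.13, adjusted p = 0.23), nor was NPAT, the transcriptional activator of these genes (-0.71, adjusted p = 0.051). Of 22 histone chaperones, 21 were tested. NAP1L4 rose by 0.24 (adjusted p = 0.038, edgeR), and ATRX, NAP1L1 and MMS22L fell by 1.04, 0.33 and 0.60 (adjusted p = 0.019, 0.034 and 0.043), where 10.5% of all tested genes rose and 14.6% fell. After the length and GC correction the list had 4 genes higher and 1 lower. NAP1L1 turned direction there (0.12), and NAP1L4 and MMS22L were no longer called (adjusted p = 0.12 and 0.17). No chaperone was called without GPT1 overexpression replicate 1 or 3, and without control replicate 3 only 1 fell. With all libraries the other 17 were not called, among them DAXX (log2 fold change 0.27, adjusted p = 0.0503).

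**Figure D5:**
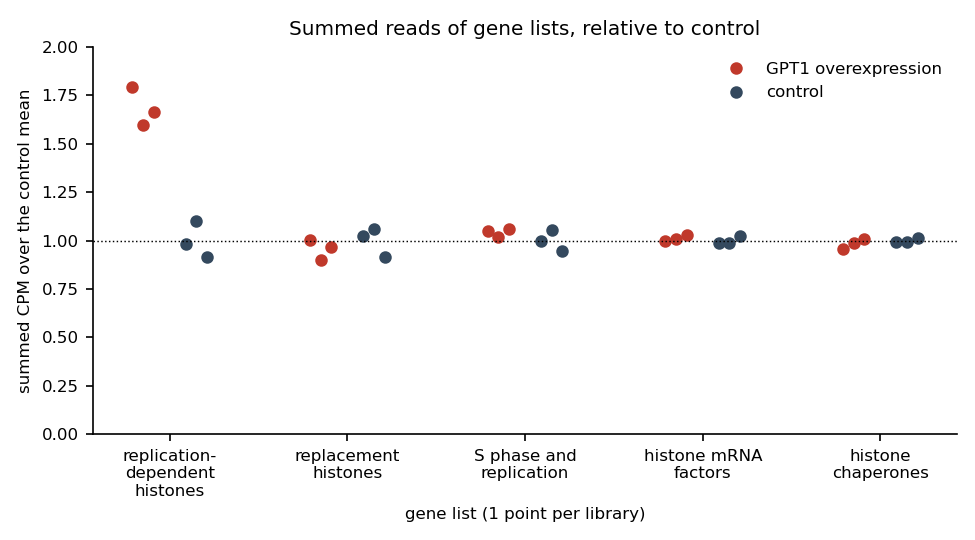
Summed CPM of 5 gene lists in each library over the mean of the control libraries, with 1 point per library and a dotted line at 1. The replication-dependent histones reach a mean ratio of 1.69 with GPT1 overexpression, and the groups of the other lists overlap.

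Markers of cell types were set beside these values. The 12 colon genes summed to 562 to 633 CPM in the GPT1 overexpression libraries, against 886 to 1039 CPM in the controls, and 8 of 9 tested fell. The 9 neural and kidney-line genes summed to 623 to 690 CPM, against 1236 to 1457 CPM, and 4 of 8 tested fell. The 7 fibroblast genes summed to 60.8 to 62.3 CPM, against 50.5 to 53.7 CPM, with 2 of 5 tested higher. The 5 leukocyte genes summed to 3.22 to 3.53 CPM, against 3.71 to 4.81 CPM, with CD3E at 0 throughout and 1 of 3 tested lower. The 4 endothelial genes reached 0.386 to 0.950 CPM, against 0.159 to 0.277 CPM, none of them tested. The 3 erythroid genes reached 0.064 to 1.14 CPM, against 0 to 0.092 CPM, with HBB at 0 throughout and none of them tested. Of all tested genes 10.5% rose and 14.6% fell. The sums thus lay apart between groups in every list but the erythroid one. They were lower with GPT1 overexpression for the colon, the neural and kidney-line and the leukocyte genes. They were higher for the fibroblast and the endothelial genes, the latter with few reads. CDX2 (log2 fold change 0.12, adjusted p = 0.45, edgeR) and 4 of the 8 tested neural and kidney-line genes were not called. The part of these genes in the histone values was not tested.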

How the data were processed

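The labels' protocols give Trizol extraction of total RNA and mRNA libraries prepared with Illumina protocols. Reads were aligned with HISAT2 2.0 to GRCh38, per the submitters' processing notes. The deposited table holds raw counts, with 60664 Ensembl identifiers in 6 columns, each matched to a sample by name. No source used here names the counting tool, its annotation or its strand setting, so reads of near-identical or overlapping histone genes cannot be assigned with certainty. The authors' counts lie between 21255655 and 32487217 per library.

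Symbols were found for 60463 identifiers in a name table. Gene positions and stem-loops come from GENCODE 29 (positions of H3C2 and H3C3 from RefSeq), promoters and the starts of gene pairs from RefSeq (GRCh38.p14), and a gene's span is the wider of the RefSeq and GENCODE 29 spans. In R 4.3.3, edgeR 4.0.16 kept 17638 genes (filterByExpr), scaled libraries with TMM factors and compared groups with the quasi-likelihood test at an adjusted p of 0.05. CPM use the TMM-scaled library sizes. The test was tested on simulated data with 200 changed genes. Alternatives were other scalings and filters, DESeq2 1.42.0, limma 3.58.1 (voom), glmTreat, a threshold of 0.01, a replicate block, a length and GC correction (mgcv 1.9.3, 98.85% of tested genes with both values) and each library left out. Over replicate pairs, chi-square per degree of freedom was 9.98 to 30.8, so all 6 libraries counted as separate.

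Values in every library are given by rule for GPT, the 15 members with the highest mean CPM and every other called member, and of other lists up to 5 genes with the smallest adjusted p are named. Other members, and SLBP, NPAT, PCNA, MCM2, POLA1, CDX2, CDX1, KRT20, KRT8, KRT18, CDH17, GPA33, IRS4, ENO2, PAX2, TUBB3, NEFH, CD3E and HBB, were named after their values were seen. The members and lists were chosen with earlier results of these data known. One gene of the list of replacement histones is not reported here.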

Additional observations from a re-analysis of the deposited data

How the results depend on the processing

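Of the 14 members called, 6 kept their call under all 18 alternatives and 8 lost it under at least one, 6 of these without a library. Members called higher numbered 8 in the test against a 1.2-fold change, 6 at an adjusted p of 0.01 and 8 to 13 with a library left out. The length and GC correction with the replicate block gave 9, and a stricter bar by construction lowers the first 2. Members called lower, 0 in edgeR, DESeq2 and limma voom, numbered 1 with no filter on low counts (H4C14), 1 after the length and GC correction (H1-4) and 0 to 1 with a library left out (H4C14 without control replicate 3). All genes called, 4430, became 1424 against a 1.2-fold change, 1172 at 0.01 and 1443 to 4907 with a library left out. The GPT log2 fold change lay between 13.19 and 13.86 with a library left out.

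Log2 ratios of the sums after the length and GC correction were 0.54 for all members, 0.48 for H1, 0.36 for H2A, 0.67 for H2B, 0.63 for HIST1, 0.12 for HIST2 and 0.26 for HIST3 with HIST4. Uncorrected ratios were 0.75 for all members, 0.74 for H1, 0.90 for H2B, 0.28 for H4, 0.84 for HIST1, 0.27 for HIST2 and 0.50 for HIST3 with HIST4. Leaving out the member with the most reads changed these uncorrected ratios to 0.58 for all, -0.84 for H1, 0.54 for H2B, -0.0105 for H4, 0.65 for HIST1, 0.0641 for HIST2 and 0.0209 for HIST3 with HIST4. Leaving out members that share over 50% of their 50-base stretches was an alternative added after seeing the data. The uncorrected ratios were then 0.58 for all, 0.54 for H2B and 0.65 for HIST1. With a library left out the uncorrected ratios spanned 0.69 to 0.83 for all, 0.62 to 0.87 for H1, 0.47 to 0.65 for H2A, 0.86 to 0.96 for H2B, 0.43 to 0.55 for H3, 0.18 to 0.38 for H4, 0.78 to 0.91 for HIST1, 0.22 to 0.36 for HIST2 and 0.36 to 0.60 for HIST3 with HIST4. NAP1L1 reversed after the length and GC correction (0.12) and with the replicate block added (0.12). The cause was not tested.

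With the replicate number as a replicate block, 12 members were called higher and 3886 genes in all. Deviations from the group means correlated at r = 0.14, -0.28 and -0.08 for same-numbered libraries, and at -0.32 to 0.39 for the others. Each group mean includes the library itself, so these values constrain each other. They cannot decide whether the numbers pair the samples. The 39 members below the filter had too few reads for the test.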
